A study of Mus musculus with 6 samples.

Results

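The genes described are 5 keratins (Krt7, Krt8, Krt14, Krt18 and Krt19) and 4 genes of junction plaques (Dsp, Jup, Pkp2 and Tjp1), 9 of the 22246 genes in the deposited expression table. They were taken by gene symbol, each paired by its Ensembl identifier to 6 library columns. They were selected on values of this same comparison, since their FPKM in both groups was known when the list was made. Their own changes are therefore given as a description. No p-value is given for them, and where fits over all genes called them, the count stands beside the share of all genes called and carries no evidence of its own. The libraries were labelled HL-1, an established mouse line derived from atrial cardiomyocytes, with heart as its tissue and C57BL/6 as its strain. In the first group, 3 libraries came from cells given a short hairpin RNA (shRNA) against Smyd4, which belongs to the SET and MYND domain proteins. In the second group, 3 libraries came from cells given a control shRNA. The sources used here do not say how the hairpin was delivered, for how long, or whether the cells were 1 clone or a pool. The labels do not tie the 3 libraries of a group to cultures of their own, so errors and p-values reflect the spread among these samples alone, and that spread may be technical.

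Keratins build intermediate filaments from pairs, each made of an acidic type I chain (here Krt14, Krt18 and Krt19) and a basic type II chain (here Krt7 and Krt8). Desmosomes hold such filaments at the cell border: desmoglein and desmocollin cadherins bind plakoglobin (Jup) and plakophilins (Pkp2), and desmoplakin (Dsp) ties this plaque to the filaments. In heart muscle the same plaque anchors desmin at the intercalated disc, where adherens junction and desmosome proteins mix. Tjp1 (ZO-1) is a scaffold of tight junctions that also sits at adherens and gap junctions.

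The libraries labelled Smyd4 shRNA held between 20755856 and 26387606 reads assigned to genes and the control libraries between 23414484 and 25267607, as recovered from the deposited values. Levels are given in FPKM (fragments per kilobase, with depth scaled out), so levels of different genes can be set side by side. Smyd4 itself stood at 12.6, 12.3 and 11.9 FPKM in the libraries labelled Smyd4 shRNA, against 12.5, 12.8 and 13.5 FPKM in the control libraries. These ranges overlapped (exact two-sided permutation test, p = 0.2, where 0.1 is the smallest p this design allows), and the log2 change of -0.07 had a 95% interval from -0.16 to 0.02. A strong lowering of Smyd4 mRNA, as the label implies, was therefore not seen, and every direction given is relative to the label alone. Of the 6 cardiomyocyte markers in the table only Tnnt2 reached 1 FPKM in any library, while Myh6, Actc1, Ryr2, Gja5 and Mybpc3 lay at or near 0 in both groups. Apart from Tnnt2, these markers thus did not bear out the cardiomyocyte label. Tnnt2 was higher in the labelled libraries, at 11.7 ± 0.398 FPKM against 7.11 ± 0.264 FPKM in the control libraries (SD, n = 3 each; limma, adjusted p = 6.22e-06). Of 5 epithelial markers (Epcam, Cdh1, Krt5, Cldn7 and Esrp1) none reached 1 FPKM, and their summed level was 0.0768 to 0.297 FPKM in the labelled libraries and 0.0191 to 0.0729 FPKM in the control libraries. Markers of the fibroblast list (4 of 6) and of the mesothelial list (2 of 5, Msln and Bnc1) reached 1 FPKM in at least 1 library. The summed fibroblast markers were 154 to 164 FPKM in the labelled libraries and 128 to 130.4 FPKM in the control libraries, but the markers did not move together. Col1a1 and Col1a2 rose 1.84-fold and 1.40-fold, while Dcn fell to 1.72 ± 0.336 FPKM in the labelled libraries, against 26.3 ± 0.984 FPKM in the control libraries, and Pdgfra fell 1.48-fold (limma, adjusted p = 1.58e-06, 2.19e-06, 9.15e-08 and 0.000143). The summed mesothelial markers were 152 to 159 FPKM in the labelled libraries and 116 to 119 FPKM in the control libraries, nearly all of it Msln. Bnc1 went the other way, with 3 to 6 reads per labelled library and 91 to 115 per control library, or 0.0412 FPKM in the labelled libraries and 0.921 FPKM in the control libraries on average. Smooth muscle markers, nearly all Acta2, summed to 193 to 201 FPKM in the labelled libraries and 286 to 298 FPKM in the control libraries. The part of these lists in the results below was not tested, and in bulk RNA more cells of a type and more RNA per cell cannot be told apart.

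The 9 genes divided into well expressed ones and ones near the detection limit. Krt14, Krt19, Jup, Pkp2 and Tjp1 had means above 1 FPKM and entered the comparison across all genes, and Krt18, Krt8, Krt7 and Dsp did not. Across all genes, limma at a Benjamini-Hochberg adjusted p of 0.05 called 5474 of 11325 tested genes (48.3%), of which 2839 were higher in the labelled libraries, a share of 25.1% of the genes tested, and 2635 were lower (23.3%). Of the 5 that were tested, 4 passed, all higher, and Tjp1 did not. Since the genes were chosen with these values known, nothing is read from that count. edgeR on the recovered reads called all 6 of the 9 that it tested (Tjp1 and Krt8 besides the other 4), where it called 49.5% of all tested genes, 23.3% higher and 26.3% lower. With no filter on low values limma called 5 of the 9, adding Krt8, where 25.3% of all genes were called, 11.6% higher and 13.7% lower. In 5 of the 9 (Krt14, Krt19, Krt8, Jup and Pkp2) every labelled library lay above every control library, a pattern that 30.2% of all tested genes showed and 6.23% of genes under 1 FPKM. Groups did not overlap, in either direction, for 57.8% of tested genes.

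**Figure D1:**
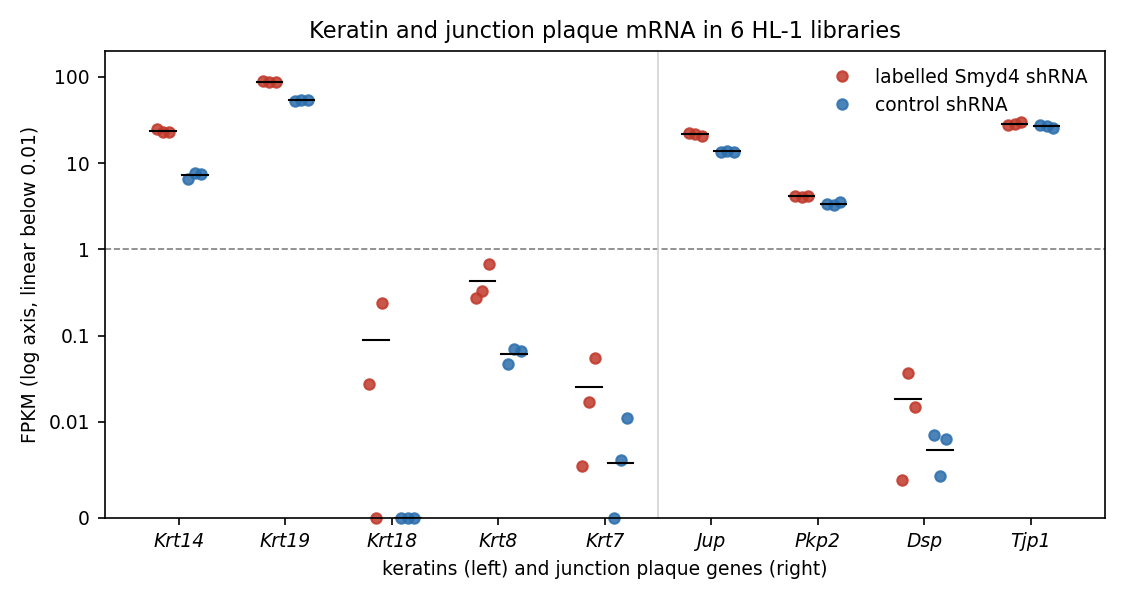
FPKM of the 9 genes (log axis, linear below 0.01) in the 3 libraries labelled Smyd4 shRNA (red) and the 3 control libraries (blue); each point is 1 library, bars are group means and the dashed line marks 1 FPKM. Krt14, Krt19, Jup and Pkp2 lie higher in the labelled libraries, Tjp1 overlaps, and Krt18, Krt8, Krt7 and Dsp stay below 1 FPKM in all 6 libraries.

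Krt14, the type I keratin of basal epidermal cells, had the largest log2 change of FPKM + 0.5 among the 5 tested genes and was 7th among the rises of all tested genes by log2 change. Its level was 24.9, 22.8 and 22.8 FPKM in the labelled libraries, against 6.59, 7.63 and 7.56 FPKM in the control libraries. The groups were far apart, and the lowest labelled library stood well above the highest control. The means were 23.5 ± 1.20 FPKM in the labelled libraries and 7.26 ± 0.585 FPKM in the control libraries (SD, n = 3 each), a 3.24-fold difference and a log2 change of 1.63 (SE 0.06, 95% interval 1.49 to 1.77). It rested on 829 to 1143 reads per labelled library and 277 to 337 per control library. Krt14 (ENSMUSG00000045545) is annotated on the minus strand of chromosome 11, from 100203162 to 100207548 of GRCm38. Its usual type II partner in epidermis, Krt5, stood at 0.0349, 0.0542 and 0 FPKM in the labelled libraries and at 0.0191, 0.0385 and 0 FPKM in the control libraries.

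Krt19, a short type I keratin of simple and ductal epithelia that lacks most of the tail domain, was the most abundant keratin in every library. It stood at 89.1, 85.9 and 86.1 FPKM in the labelled libraries and at 52.2, 53.6 and 54.3 FPKM in the control libraries. No library of either group came near the other group. The log2 change was 0.70 (SE 0.03, 95% interval 0.64 to 0.76), which is 1.63-fold on the means. Krt19 (ENSMUSG00000020911) lies 54.5 kb from Krt14 on the same strand of chromosome 11 (100140810 to 100148665).

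Jup, which encodes plakoglobin, the armadillo protein that desmosomes share with adherens junctions, had a fold close to that of Krt19. It stood at 22.3, 21.8 and 20.5 FPKM in the labelled libraries and at 13.5, 13.9 and 13.5 FPKM in the control libraries. The groups did not overlap, with a log2 change of 0.64 (SE 0.04, 95% interval 0.56 to 0.73). Its close relative Ctnnb1 (beta-catenin), which binds the same site of classical cadherins, stood at 126.7 ± 1.17 FPKM in the labelled libraries and 121 ± 1.20 FPKM in the control libraries (SD, n = 3 each; limma, adjusted p = 0.0525). Jup thus made up 13.9% to 14.9% of the summed FPKM of the pair in the labelled libraries and 9.92% to 10.3% in the control libraries. Jup (ENSMUSG00000001552) lies on the minus strand of chromosome 11 from 100368958 to 100397763, 161 kb from Krt14. A stretch of at most 150 bases in its transcript models matched transcripts of 92 other genes at 95% identity or more, and reads of that stretch are uncertain.

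Pkp2, the plakophilin of simple epithelia and heart muscle, rested on a lower level and a smaller difference. It stood at 4.11, 4.06 and 4.15 FPKM in the labelled libraries and at 3.31, 3.30 and 3.58 FPKM in the control libraries. The 2 groups did not overlap, and the spread within the labelled group was small. The log2 change was 0.24 (SE 0.05, 95% interval 0.13 to 0.36), a 1.21-fold difference. Pkp2 (ENSMUSG00000041957) lies on the plus strand of chromosome 16 from 16213318 to 16272712.

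Tjp1 stood at 27.4, 28.3 and 29.5 FPKM in the labelled libraries and at 27.9, 26.8 and 25.6 FPKM in the control libraries. The ranges overlapped, since the lowest labelled library lay below the highest control library. The log2 change of 0.09 had a 95% interval from -0.01 to 0.18. The interval includes 0 and values up to a small rise. Tjp1 (ENSMUSG00000030516) lies on the minus strand of chromosome 7 from 65296165 to 65527781, and only the near-silent Gm44794 overlaps it on its strand.

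The other 4 genes rested on a few reads. Krt8 (ENSMUSG00000049382, minus strand, 101996711 to 102004342) and Krt18 (ENSMUSG00000023043, plus strand, 102028180 to 102032027) are neighbours on chromosome 15, 23.8 kb apart, and Krt7 (ENSMUSG00000023039, plus strand, 101411043 to 101430313) lies in the same cluster. Dsp (ENSMUSG00000054889) lies on the plus strand of chromosome 13 from 38151294 to 38198577. Krt8, the type II keratin that simple epithelia make first in development, had 13, 15 and 25 reads in the labelled libraries and 2, 3 and 3 in the control libraries, or 0.276, 0.329 and 0.669 FPKM in the labelled libraries against 0.0463, 0.0701 and 0.0655 FPKM in the control libraries. Every labelled library was higher, with library 3 highest. Scaled for depth, the 53 labelled reads against 8 control reads gave a ratio of 6.70 (exact 95% interval 3.17 to 16.3, counting error only), and 4.97 without replicate 3 of the labelled libraries. The authors' deposited table gives Krt8 a log2 change of 0.82, computed in a way the sources used here do not state. A processed pseudogene, Krt8-ps, matches 941 bases at up to 98.6% identity and held 1 to 3 reads in each of the 6 libraries, so single reads of Krt8 are uncertain. Krt18, the type I partner of Krt8, had at least 1, 0 and 7 reads in the labelled libraries and 0 in each control library. A count of 0 over the control group allows up to 0.0294 FPKM there. The observed labelled level was 2.70-fold that limit, a ratio that leaves out the counting error of the labelled reads. Of the 8 labelled reads, 7 came from replicate 3 and 1 read remained without it.

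Krt7, a type II keratin of ducts and mesothelium, had 1, 3 and 8 reads in the labelled libraries and 0, 1 and 2 in the control libraries. The depth-scaled ratio was 4.05 with an exact 95% interval from 1.09 to 22.4 for counting error, and the groups overlapped. Dsp, the plakin that links the desmosomal plaque to intermediate filaments, had 1, 9 and 3 reads in the labelled libraries and 2, 1 and 2 in the control libraries. Its ratio of 2.63 had an interval from 0.880 to 9.43, and the groups overlapped. A difference in Dsp was not detectable at this depth. Read numbers of Krt18, Krt7 and Dsp are the smallest the values allow. Replicate 3 of the labelled libraries, which held most of the Krt18 and Krt7 reads, also had the highest summed level of the epithelial markers (0.297 FPKM) and of the endothelial markers (0.567 FPKM, against 0.0473 to 0.168 FPKM in the other 5 libraries). That library also held 25 of the 53 labelled Krt8 reads, 12 reads of the smooth muscle marker Myh11 and 7 of the macrophage marker Ptprc. The other 5 libraries held at most 2 reads of Myh11 and 0 of Ptprc. Not every marker was highest there, and Cd68 was not. The part of those traces in the low keratins was not tested.

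Promoter windows from RefSeq (GRCm38.p6, 250 bases before to 30 after the annotated start) were found for 7 of the 9 genes. They are shown for Krt14 and Jup, which were higher in the labelled libraries and lie near each other, for Krt8, which is nearly silent, and for Tjp1, whose groups overlapped. Capitals mark matches on either strand to 4 motifs. They are TATAAA (the core of the TATA box), CCAAT (the CCAAT box), GGGCGG (the GC box) and TGANTCA (an AP-1 type motif, with N for any base). The windows are chr11:100206001-100206280 for Krt14, chr11:100397761-100398040 for Jup, chr15:102004313-102004592 for Krt8 and chr7:65371215-65371494 for Tjp1, all read on the minus strand.
Krt14: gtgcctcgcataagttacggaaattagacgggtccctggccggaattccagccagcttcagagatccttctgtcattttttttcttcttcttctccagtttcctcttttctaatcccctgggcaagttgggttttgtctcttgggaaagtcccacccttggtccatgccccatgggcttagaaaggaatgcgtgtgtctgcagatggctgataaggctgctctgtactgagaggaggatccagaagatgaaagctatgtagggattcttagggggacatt
Jup: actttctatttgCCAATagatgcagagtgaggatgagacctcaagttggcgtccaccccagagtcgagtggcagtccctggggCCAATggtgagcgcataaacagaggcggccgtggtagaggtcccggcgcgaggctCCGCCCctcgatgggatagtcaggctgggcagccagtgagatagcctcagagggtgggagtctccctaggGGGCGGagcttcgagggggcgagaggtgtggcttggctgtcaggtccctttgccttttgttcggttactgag
Krt8: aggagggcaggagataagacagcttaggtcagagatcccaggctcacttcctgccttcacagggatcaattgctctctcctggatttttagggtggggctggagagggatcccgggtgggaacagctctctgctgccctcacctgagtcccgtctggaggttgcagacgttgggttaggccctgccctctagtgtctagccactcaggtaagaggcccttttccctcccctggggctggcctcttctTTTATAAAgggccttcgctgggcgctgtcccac
Tjp1: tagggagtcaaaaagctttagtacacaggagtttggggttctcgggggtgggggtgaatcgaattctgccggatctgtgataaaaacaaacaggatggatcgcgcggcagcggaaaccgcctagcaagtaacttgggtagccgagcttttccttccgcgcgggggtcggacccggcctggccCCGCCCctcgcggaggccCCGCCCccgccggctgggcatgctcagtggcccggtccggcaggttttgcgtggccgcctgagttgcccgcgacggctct
The Krt14 window holds none of the 4 motifs, which says only that these letters are not in it. It lies inside the longer gene model of the authors' table. The Tjp1 window also lies inside its annotated gene, which runs from 65296165 to 65527781, so neither window covers the outer start of its gene model. The Jup window holds CCAAT at 2 places and GGGCGG at 2 places, once on each strand. Krt8 has TATAAA at the annotated start, in overlapping matches on both strands, and Tjp1 has GGGCGG at 2 places on the opposite strand. Among all 32851 RefSeq windows of the same length, 13.1% hold TATAAA, 36.1% hold CCAAT, 34.7% hold GGGCGG and 7.46% hold TGANTCA. The matches are a description of the sequence and not of bound sites.

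The other keratins of the table put these levels in context. Of 15 further keratin genes 3 were tested, with 1 higher, 1 lower and 1 not passing. Their median log2 change was 0.16, against 0.02 for all tested genes. For this and each list that follows, the shares over all tested genes are 25.1% higher and 23.3% lower. Krt13, a type I keratin of stratified mucosa that neighbours Krt19 (19.2 kb apart), rose to 28.0 ± 0.907 FPKM in the labelled libraries, against 20.8 ± 1.55 FPKM in the control libraries (SD, n = 3 each; limma, adjusted p = 0.000352). Krt80, a type II keratin found in many epithelia, fell 2.13-fold, at 12.9, 11.6 and 10.8 FPKM in the labelled libraries against 24.7, 25.0 and 25.5 FPKM in the control libraries (limma, adjusted p = 3.31e-06). It lies 40.9 kb from Krt7 in the type II keratin cluster of chromosome 15. Krt10, a type I keratin of upper epidermis, stood at 2.97 ± 0.454 FPKM in the labelled libraries and 2.60 ± 0.249 FPKM in the control libraries (limma, adjusted p = 0.25). Krt16, a near relative of Krt14, stayed under 1 FPKM and was left out of the main limma fit. It had 0.172 FPKM in the labelled libraries and 0.369 FPKM in the control libraries. edgeR tested 5 of the 15 further keratins and called 3, 1 higher and 2 lower, where it called 49.5% of all genes it tested.

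Type I keratin mRNA outweighed type II mRNA in every library. Within the 5 keratins described here the type II chains made up 0.246% to 0.659% of the summed FPKM in the labelled libraries and 0.0788% to 0.124% in the control libraries. These shares rest on few reads. Krt8 held 53 reads over the labelled libraries and 8 over the control libraries, and Krt7 at least 12 and 3. Over every keratin of the table whose number places it in either type (13 type I and 6 type II genes), a set chosen after the values were seen, the order of the groups was the opposite. Krt80 holds nearly all of the type II mRNA in that set. The type II share was then 8.28%, 7.96% and 7.58% in the labelled libraries and 23.1%, 23.0% and 22.6% in the control libraries. Summed type I mRNA was 142 ± 3.56 FPKM in the labelled libraries and 84.8 ± 2.75 FPKM in the control libraries, and summed type II mRNA was 12.3 ± 0.856 FPKM in the labelled libraries and 25.2 ± 0.445 FPKM in the control libraries (SD, n = 3 each). Krt14 alone held 15.2% of all keratin FPKM in the labelled libraries and 6.60% in the control libraries on average, while Krt19 held 56.3% in the labelled libraries and 48.5% in the control libraries. All of these are shares of mRNA, and protein was not measured.

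**Figure D2:**
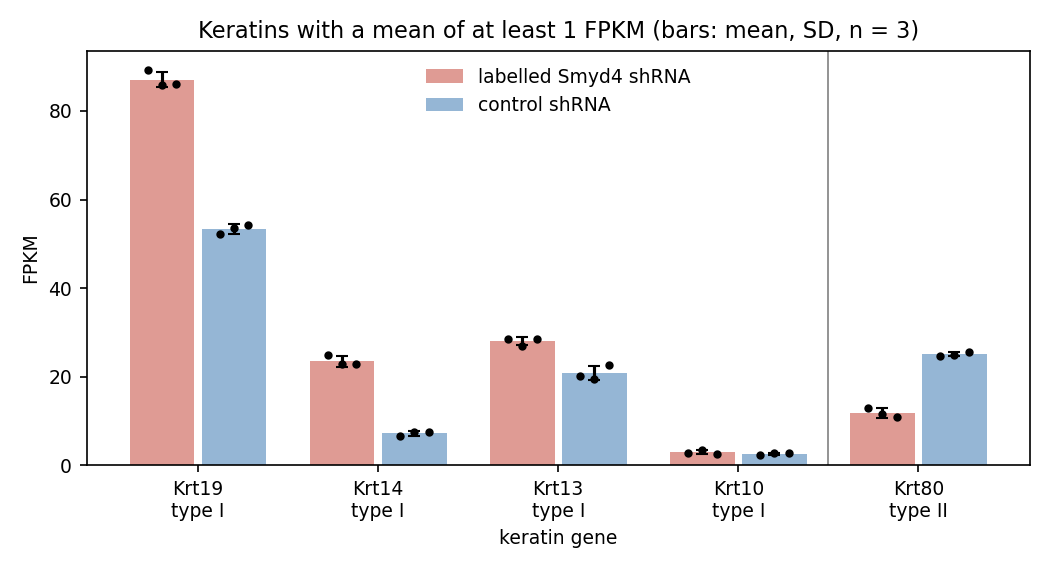
FPKM of the 5 keratins with a mean of at least 1 FPKM, 4 of type I and Krt80 of type II; bars are means with SD, points are the 3 libraries, red for labelled Smyd4 shRNA and blue for control shRNA. Krt19, Krt14 and Krt13 stand higher in the labelled libraries, Krt10 overlaps and Krt80 is lower (11.8 FPKM in the labelled libraries against 25.1 FPKM in the control libraries).

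Keratin mRNA stayed a small part beside vimentin, the mesenchymal intermediate filament protein. All typed keratins summed to 11.7% to 12.2% of the Vim level in the labelled libraries and 9.91% to 10.5% in the control libraries. Of 7 tested genes on the list of other intermediate filaments, 3 were higher, 3 were lower and 1 (Lmnb2) did not pass. The median log2 change was 0.01. Vim rose to 1298 ± 19.6 FPKM in the labelled libraries, against 1079 ± 2.85 FPKM in the control libraries (limma, adjusted p = 9.09e-05). The nuclear lamin genes Lmna (299.9 ± 6.83 FPKM in the labelled libraries against 259 ± 1.82 FPKM in the control libraries) and Lmnb1 (81.0 ± 1.46 FPKM in the labelled libraries against 67.7 ± 1.29 FPKM in the control libraries) rose by small factors (limma, adjusted p = 0.00032 and 0.000116). The muscle filament gene Des fell to 102 ± 1.21 FPKM in the labelled libraries, against 136.6 ± 1.26 FPKM in the control libraries (limma, adjusted p = 3.44e-06). Nes, a filament gene of progenitor cells, fell 1.69-fold (limma, adjusted p = 1.13e-06), and Sync, which encodes a desmin-binding filament protein, fell 2.26-fold (limma, adjusted p = 3.60e-06). Sync overlaps Rbbp4 on the opposite strand, and without a known strand setting in the counting the reads of both cannot be told apart.

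Position as such was not used in choosing the 9 genes. Krt19, Krt14 and Jup lie within 1 stretch of chromosome 11 that also holds most type I keratin genes. Choosing type I keratins therefore chose this stretch in part. A window of 300.0 kb to each side of the start of the authors' Krt14 gene model was chosen after the values were seen. In it the table has 27 genes and 13 were tested. Of the 10 tested genes that are not among the 9, 8 were higher, 0 were lower and 2 did not pass by limma, while 25.1% of all tested genes were higher. Their median log2 change was 0.24, against 0.02 for all tested genes. Krt13 is described above. Eif1, a translation initiation factor, stood at 266 ± 7.17 FPKM in the labelled libraries and 218.6 ± 4.20 FPKM in the control libraries, a log2 change of 0.28. Hap1, which encodes a huntingtin-associated protein, had 1.64 ± 0.0616 FPKM in the labelled libraries and 0.862 ± 0.00733 FPKM in the control libraries, a log2 change of 0.65. The largest log2 change of these 10 genes was 0.85 at Gm12349, and Gm10039 had 0.55. Beyond Jup the changes were small: Fkbp10 had a log2 change of 0.19, P3h4 0.13 and Acly 0.07, and Nt5c3b and Klhl11 did not pass. Krt16, within the window, was left out of the main limma fit. It was the only 1 of the window's 10 keratins in the table whose 3 labelled libraries all lay below the control libraries.

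**Figure D3:**
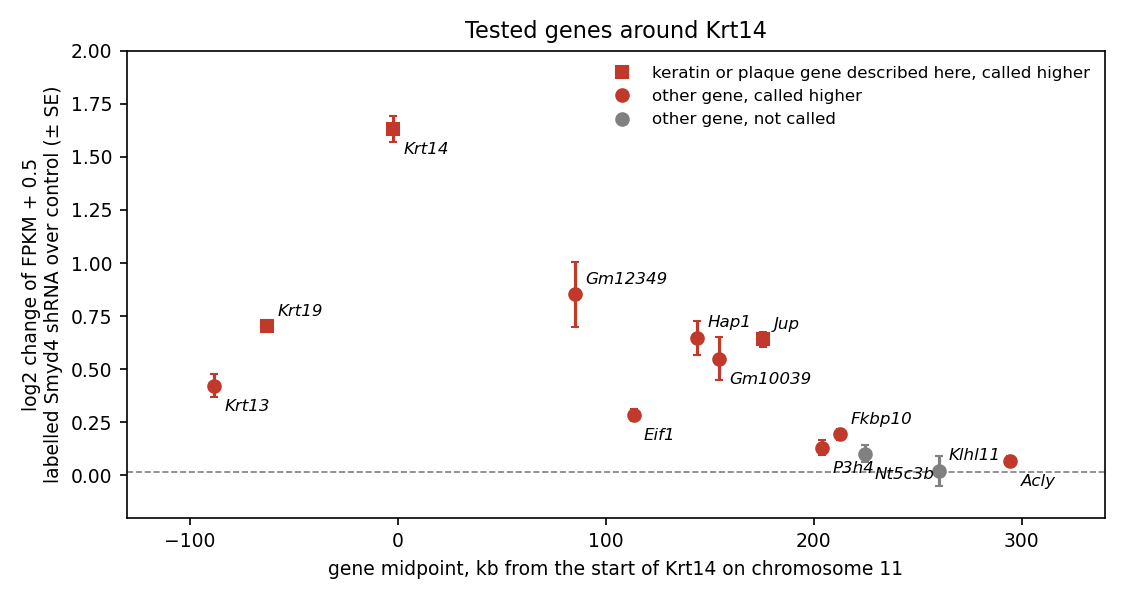
Log2 change (labelled Smyd4 shRNA over control, with SE) of the 13 tested genes within 300.0 kb of the start of Krt14 against the distance of each gene's midpoint in kb. Squares are Krt19, Krt14 and Jup, circles other genes, red called higher and grey not called; the dashed line is the median of all tested genes. The window is centred on Krt14, which had the largest change among the 5 tested of the 9 genes. A high point at the centre is set by that choice. Beyond Jup the changes are at most 0.19 (Fkbp10). There Fkbp10, P3h4 and Acly are called higher, and Nt5c3b and Klhl11 are not called.

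By profile over the 6 libraries, the genes nearest to Krt14 (smallest root mean square distance of centred log2 values, mean of at least 5 FPKM) included Kcnab2 at 0.18 and Tinagl1 at 0.20. Kcnab2, a potassium channel beta subunit, had a mean of 10.3 FPKM in the labelled libraries and 3.85 FPKM in the control libraries. Tinagl1, a matrix protein, had a mean of 16.6 FPKM in the labelled libraries and 6.59 FPKM in the control libraries.

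The desmosomal cadherins were nearly absent, while Pkp1 and Pkp4 stood above Pkp2. Of 8 desmosome genes of the table beyond the 9, 2 were tested. Pkp1 was higher and Pkp4 did not pass, and the median log2 change was 0.06. The cadherins Dsg2, Dsg3, Dsc2 and Dsc3 stood between 0 and 0.0320 FPKM in every library, and the highest value was that of Dsc2 in 1 control library, with 4 reads. Pkp1, the plakophilin of stratified epithelia, was the most abundant of the plakophilins 1 to 3 and rose to 15.0 ± 0.144 FPKM in the labelled libraries, against 13.0 ± 0.235 FPKM in the control libraries (limma, adjusted p = 0.000824). Pkp4, which associates with adherens junctions, stood at 15.9 ± 0.498 FPKM in the labelled libraries and 16.9 ± 0.398 FPKM in the control libraries (limma, adjusted p = 0.077). Among plakins and hemidesmosome genes, 2 of 6 tested were higher, 2 were lower and 2 (Plec and Cd151) did not pass. The median log2 change was -0.02. Itga6, the integrin alpha chain of hemidesmosomes and other laminin receptors, rose 1.98-fold to 39.6 ± 0.623 FPKM in the labelled libraries, against 20.0 ± 0.356 FPKM in the control libraries (limma, adjusted p = 1.29e-07). Its hemidesmosome partner Itgb4 stayed under 1 FPKM in every library. The plakin gene Ppl rose 1.23-fold, while the cytoskeletal linkers Macf1 and Dst fell 1.46-fold and 1.34-fold (limma, adjusted p = 0.00403, 8.72e-05 and 0.00117).

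Adherens junction genes moved in both directions, with 2 of 9 tested higher, 2 lower and 5 not passing, and a median log2 change of 0.02. Vcl, which encodes vinculin, rose to 49.1 ± 0.783 FPKM in the labelled libraries, against 43.3 ± 1.19 FPKM in the control libraries (limma, adjusted p = 0.00138), and Afdn, the nectin-binding scaffold, rose 1.14-fold (limma, adjusted p = 0.00399). Vcl overlaps the expressed gene Ap3m1 on the opposite strand. Nectin1 and Nectin2 encode cell adhesion molecules and fell, with Nectin1 at 0.524 ± 0.0793 FPKM in the labelled libraries against 1.86 ± 0.194 FPKM in the control libraries, and Nectin2 at 6.67 ± 0.488 FPKM in the labelled libraries against 10.7 ± 0.564 FPKM in the control libraries (limma, adjusted p = 5.27e-05 and 6.20e-05). The alpha-catenin gene Ctnna1 (134 ± 0.991 FPKM in the labelled libraries and 132 ± 1.33 FPKM in the control libraries) and the cadherin gene Cdh2 (8.82 ± 0.193 FPKM in the labelled libraries and 8.97 ± 0.332 FPKM in the control libraries) did not pass.

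Among tight junction genes, the list that Tjp1 belongs with, 7 of 13 tested were higher, 4 were lower and 2 did not pass, where 48.3% of all tested genes passed. Their median log2 change was 0.17, against 0.02 for all tested genes. Cldn15, a claudin that forms cation channels, rose to 3.59 ± 0.247 FPKM in the labelled libraries, against 0.721 ± 0.0556 FPKM in the control libraries (limma, adjusted p = 1.22e-06). F11r, which encodes the adhesion molecule JAM-A, rose 1.82-fold to 18.8 ± 0.634 FPKM in the labelled libraries, against 10.3 ± 0.611 FPKM in the control libraries, and the cingulin relative Cgnl1 rose 1.34-fold (limma, adjusted p = 3.97e-06 and 1.37e-05). The sister genes Jam2 (15.5 ± 0.385 FPKM in the labelled libraries against 25.4 ± 0.50 FPKM in the control libraries) and Jam3 (1.77 ± 0.152 FPKM in the labelled libraries against 3.71 ± 0.270 FPKM in the control libraries) fell (limma, adjusted p = 1.14e-06 and 4.07e-05). The polarity scaffold Mpp5 fell 1.22-fold (limma, adjusted p = 0.00106).

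Regulators of the epithelial state had 6 tested genes, of which 0 were higher, 4 were lower and 2 did not pass. Their median log2 change was -0.24, against 0.02 for all tested genes. edgeR tested 9 of these regulators and called 7, 1 higher and 6 lower, where it called 49.5% of all genes it tested. Among repressors of epithelial genes, 3 fell and Snai1 did not pass: Zeb1 to 4.83 ± 0.102 FPKM in the labelled libraries, against 6.87 ± 0.0256 FPKM in the control libraries, Zeb2 to 4.11 ± 0.243 FPKM in the labelled libraries, against 5.44 ± 0.30 FPKM in the control libraries, and Snai2 to 8.37 ± 0.509 FPKM in the labelled libraries, against 11.3 ± 0.736 FPKM in the control libraries (limma, adjusted p = 2.68e-05, 0.00122 and 0.000766). The list pools these repressors with other regulators. Of the others, Klf4 was lower, with a log2 change of -0.08 (limma, adjusted p = 0.0311), and Klf5 did not pass. The main limma fit needs a mean of at least 1 FPKM and left out the basal keratin regulator Trp63. Its level was 0.280 FPKM in the labelled libraries and 0.487 FPKM in the control libraries. Grhl1 was left out of that limma fit too, with 1.14 FPKM in the labelled libraries and 0.736 FPKM in the control libraries. Over all 7 lists, 32 of 46 tested genes passed, 16 higher and 16 lower, where 48.3% of all tested genes passed. Their median log2 change was -0.01.

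**Figure D4:**
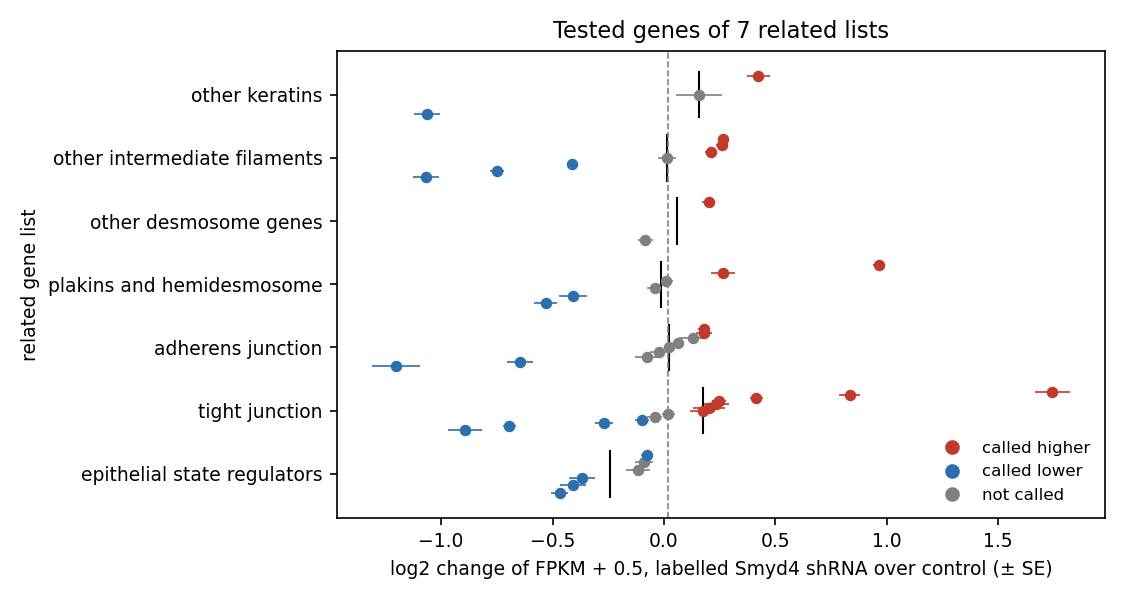
Log2 change of FPKM + 0.5 (labelled Smyd4 shRNA over control, with SE) of the tested genes of the 7 related lists; each point is a gene, red called higher, blue called lower and grey not called, black bars are list medians and the dashed line is the median of all tested genes. Tight junction genes, the list with the most tested genes, have the most calls by number (11 of 13), and other intermediate filaments have 6 of 7. Of all tested genes 48.3% were called. None of the regulators is called higher.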

How the data were processed

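RNA of 6 libraries was sequenced. TopHat2 2.0.9, Bowtie2 2.0.6 and GRCm38 are named in the submitters' processing notes. The sources used here name no read counter, annotation, strand setting or test of the authors. The authors deposited FPKM for 22246 genes and a comparison table of 5616 genes with a normalized signal per library (reads divided by 1 size factor), log2 fold changes, p-values and adjusted p-values (largest 0.0499), and gene lengths. All signal values (100%) were whole multiples of 1 step within 0.0001. FPKM times length over signal was constant at 41.6, so whole reads were recovered from the deposited FPKM for 100% of genes within 0.01 reads. Lengths came from the authors for 5616 genes, from GENCODE M21 for 13309, and were the smallest possible for 3321.

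log2(FPKM + 0.5) was compared with limma 3.58.1 (R 4.3.3, trend) for genes averaging 1 FPKM or more, adjusted by Benjamini-Hochberg over all tested genes at 0.05. Changes of low genes are understated on this scale. edgeR 4.0.16 (quasi-likelihood) on the recovered reads was an alternative. Both were tested on simulated data. Symbols matched for 22134 identifiers, and coordinates outside the authors' table are from GENCODE M21 on GRCm38. Libraries of a group differed by more than sampling noise (chi-square per degree of freedom 1.66 to 2.80). The exact intervals of read ratios and the floors (3 reads) cover counting error only. The intervals of log2 changes come from limma and reflect the spread among libraries.

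The 9 genes, the 7 related lists and the marker lists were chosen with earlier results of these data known. Named from each list were up to 3 called genes per direction with the smallest adjusted p, or the 2 with the highest mean where none was called. Krt5, Krt10, Krt16, the desmosomal cadherins, Pkp4, Ctnnb1, Ctnna1, Cdh2 and Itgb4 were named after their values were seen. So were Trp63, Klf4, Klf5, Grhl1, the marker genes and the genes around Krt14. Some genes that the rule or the lists cover are not reported here.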

Additional observations from a re-analysis of the deposited data

How the results depend on the processing

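Pseudocounts of 0.1 and 1, no filter, a mean of at least 5 FPKM, median-of-ratios scaling, quantile normalization, the block below, edgeR and leaving out each library were tried. The count of called genes stayed within 1.5 times of 5474, and that of related genes within 1.5 times of 32. With each library left out they ranged from 4536 to 4993 and from 28 to 30. Krt14, Krt19, Jup and Tjp1 kept a positive change under all alternatives, with log2 changes of 1.57 to 1.69, 0.68 to 0.71, 0.62 to 0.67 and 0.06 to 0.12, and Pkp2 in all where it was tested (0.22 to 0.29). In edgeR, where 49.5% of genes were called, all 6 of the 9 genes tested were called, Tjp1 and Krt8 included. Without a filter limma called Krt8 too (5 of 9, against 25.3% of all genes). List counts moved by over 1.5 times in edgeR for desmosome genes (3 of 3 tested, 1 higher and 2 lower, against 1 of 2) and regulators (7 of 9 tested, 1 higher and 6 lower, against 4 of 6), and at 5 FPKM for tight junction genes (6 of 8 tested, against 11 of 13). Quantile normalization split calls into 3163 higher and 2465 lower (2839 and 2635 as deposited).

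The type II share of the 5 keratins, which rests on few reads of Krt8 and Krt7, was 0.298 percentage points higher in the labelled libraries. It was 0.391 points higher without Krt14 in the sum, and 0.172 to 0.379 points higher with single libraries left out, the lowest without replicate 3 of the labelled libraries. Over every typed keratin, an alternative chosen after seeing the data, the difference was -14.9 points. Krt80, which fell 2.13-fold, is then included. The change of Smyd4 lay between -0.10 and -0.04 under all alternatives and never passed.

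Same-numbered libraries of the 2 groups did not deviate together (correlations of -0.03, 0.02 and 0.01 across genes), so the numbers were not taken as pairs. With the replicate block 5141 genes and 30 related genes were called, against 5474 and 32, and the same 4 of the 9 genes. Depth limits Krt18, Krt7 and Dsp, whose smallest possible read numbers were no higher than 9 in any library.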
